A study of Mus musculus with 9 samples.

Results

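A set of 10 growth-arrest genes of the mouse was followed across 3 genotypes, namely Cdkn1a, Btg1, Btg2, Gadd45a, Gadd45b, Gadd45g, Mdm2, Ccng1, Sesn1 and Trp53. They were taken by symbol, 10 of the 56805 genes in the table of normalized read counts, and all 10 passed the filter on low values, as did 15279 genes in all. RNA came from the left tibialis anterior, a fast-twitch muscle at the front of the lower leg, of 13-month-old male mice. There were 3 mice labelled WT, 3 labelled Svil-KO and 3 labelled Svil-Mut, each giving 1 library. Svil encodes supervillin, a membrane-skeleton protein that binds actin and myosin. The labels do not describe either Svil allele or the strain background, and give no treatment.

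Growth-arrest genes slow or stop the cell cycle when a cell is stressed or leaves proliferation. The tumour suppressor p53, encoded by Trp53, is a transcription factor that activates many of them, among them Cdkn1a, Mdm2, Ccng1, Sesn1, Btg2 and Gadd45a, and the Mdm2 ubiquitin ligase in turn marks p53 for degradation. Cdkn1a, Btg2 and the Gadd45 genes are also switched on without p53, as stress-induced and immediate early genes that respond within minutes to an hour. Muscle fibres do not divide, and in muscle Cdkn1a and Gadd45a are best known for cell-cycle exit during differentiation and for their induction when a muscle loses its nerve.

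Depth was 36234428 to 48762188 reads per library. The members held between 320 reads (Cdkn1a) and 58951 reads (Ccng1) in any library, so none was near the filter on low values. For Svil itself, WT libraries had 8407 to 9373 normalized counts, Svil-KO libraries 6656 to 7402 and Svil-Mut libraries 3939 to 4615, with no overlap. Fast-fibre genes were abundant in all 9 libraries, their sum running from 6525470 to 8283720. All libraries carried 1 batch label. Transcripts of the mitochondrial genome took 5.32% to 6.56% of reads in WT and Svil-KO and 3.93% to 5.03% in Svil-Mut. In whole muscle, a change in the number of cells of a type and a change in RNA per cell cannot be told apart.

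Growth-arrest transcripts had higher estimates in Svil-Mut muscle than in WT, though none passed the main test. The separation was widest for Btg2, Cdkn1a and Gadd45b and small for Ccng1, and the Btg1 levels of the genotypes overlapped. All 10 members had a log2 fold change above 0 against WT, where 49.3% of all tested genes did, and their median was 0.43 against -0.0046 over all genes. For 4 members (Btg2, Cdkn1a, Gadd45b and Ccng1) the lowest Svil-Mut library lay above the highest WT library, which held in that direction for 7.13% of all genes. No member passed the limma threshold of an adjusted p under 0.05, and 0.0393% of all genes passed. An unadjusted limma p under 0.05 with a higher level was reached by 5 members, these 4 and Gadd45g, and by 4.71% of all genes. EdgeR on the recovered whole reads called 0 members (0.0393% of all genes) and DESeq2 called 2, Btg2 and Cdkn1a (1.15% of all genes). Without Svil-Mut replicate 2, 10 members were still above 0 and 4 had an unadjusted limma p under 0.05 with a higher level (49.8% and 4.43% of all genes). Without Svil-Mut replicate 4 these counts were 8 and 6 (50.2% and 4.39% of all genes). With 3 libraries against 3, the smallest p that an exact 2-sided permutation test of 1 gene can give is 0.1.

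**Figure D1:**
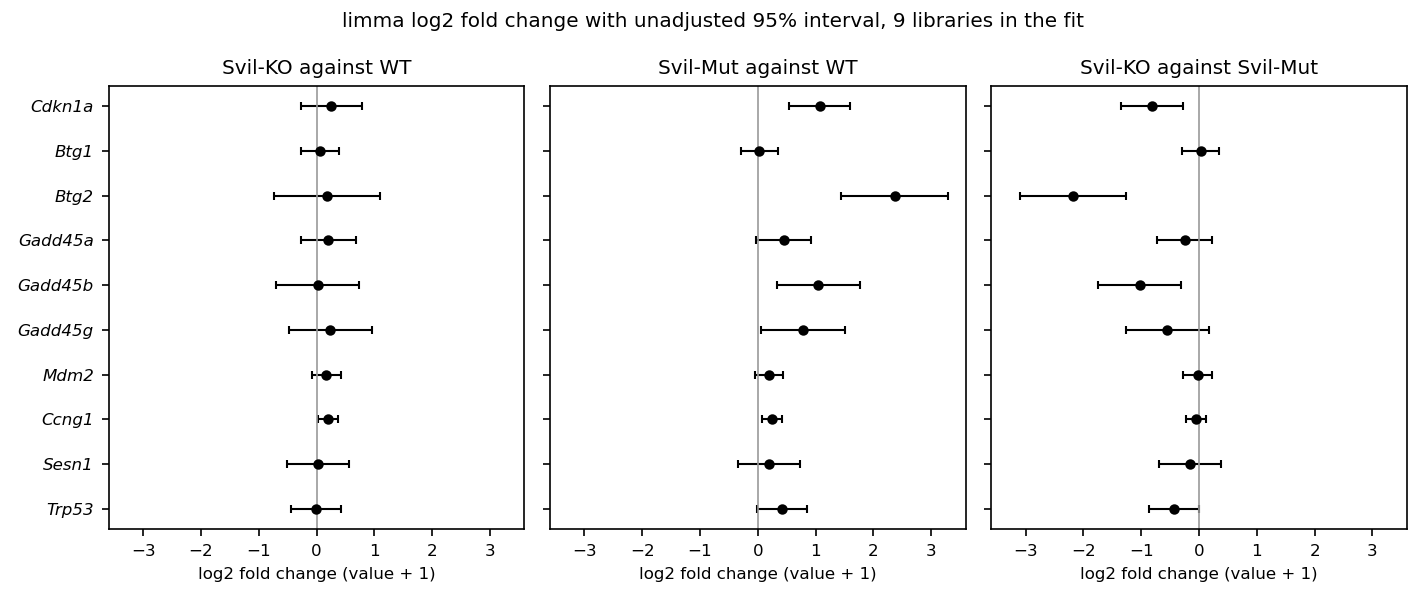
Log2 fold change of each gene (x axis, on the log2(normalized count + 1) scale) with its unadjusted 95% limma interval, in the 3 comparisons. Btg2 stands farthest from 0 in Svil-Mut against WT (2.37) and in Svil-KO against Svil-Mut (-2.19), while all 10 points of Svil-KO against WT lie between -0.0079 and 0.26.

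The BTG family comprises small antiproliferative proteins that bring the CCR4-NOT deadenylase to messenger RNAs. Btg2 (ENSMUSG00000020423.6, GRCm38 chromosome 1, 134075170 to 134079120, minus strand, protein coding) had the largest difference of the 10. Its normalized counts were 1190, 917 and 998 in WT replicates 1, 3 and 4, and 2089, 754 and 1013 in Svil-KO replicates 1, 3 and 4. In Svil-Mut replicates 1, 2 and 4 they were 4392, 10372 and 3300. Every Svil-Mut library was above every WT and Svil-KO library, and Svil-KO replicate 1 stood about midway between the WT level and the lowest Svil-Mut library. The means were 1035 ± 140 in WT and 6022 ± 3807 in Svil-Mut (SD, n = 3), a ratio of 5.82. This was a log2 fold change of 2.37 ± 0.42 SE (95% interval 1.45 to 3.29; limma unadjusted p = 0.000157, adjusted p = 0.114). The adjusted p was 0.137 by edgeR and 0.00353 by DESeq2. Leaving out each library in turn gave log2 fold changes of 1.89 (without Svil-Mut replicate 2) to 2.71 (without Svil-Mut replicate 4) and limma adjusted p-values of 0.0474 (without Svil-KO replicate 1) to 0.369 (without WT replicate 4).

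The stretch before the Btg2 start is shown because Btg2 was the only member with a full cAMP response element there, the site read by CREB-family factors. It is chr1:134079156-134079405 on the minus strand of GRCm38.p6 from RefSeq, 5' to 3', and capitals mark the element TGACGTCA, whose first base is at position -166 from the start.
Btg2: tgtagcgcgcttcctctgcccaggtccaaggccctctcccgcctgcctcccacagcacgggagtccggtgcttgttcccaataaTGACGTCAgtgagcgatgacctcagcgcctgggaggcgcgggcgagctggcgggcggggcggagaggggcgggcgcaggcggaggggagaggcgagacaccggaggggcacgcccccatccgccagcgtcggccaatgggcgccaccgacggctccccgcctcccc
This element was found in 1.79% of the 32851 mouse windows of the same length, which run from 250 bases before to 50 after a start.

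Btg1, the closest relative of Btg2 (ENSMUSG00000036478.8, chromosome 10, 96617006 to 96622809, plus strand), was level across the genotypes. It had 457, 530 and 434 normalized counts in WT, 436, 521 and 521 in Svil-KO, and 476, 434 and 538 in Svil-Mut, in replicate order. These ranges overlapped throughout. Its log2 fold change in Svil-Mut was 0.027 (95% interval -0.30 to 0.35), so a change of Btg1 as large as that of Btg2 lies outside the interval. Per kilobase of exon, Btg2 made up 94.9% ± 2.9 (SD, n = 3) of the reads of the pair in Svil-Mut, 80.9% ± 8.5 in Svil-KO and 80.6% ± 3.3 in WT, with Svil-Mut libraries at 92.2% to 97.9% and WT libraries at 76.9% to 83.4%. Of the other family members and CCR4-NOT subunits, 15 of 15 were tested and 0 were called in Svil-Mut against WT. Tob1 and Tob2, which share the BTG domain, were the 2 with an unadjusted limma p under 0.05, both higher. Tob1 had 14534 to 19378 normalized counts in Svil-Mut, 9804 to 12331 in Svil-KO and 9068 to 10580 in WT (log2 fold change 0.72, limma adjusted p = 0.0896). Tob2 had 6835 to 10355, 5509 to 7339 and 5727 to 6105 in the same order (log2 fold change 0.59, limma adjusted p = 0.283). The median of the 15 was 0.057.

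**Figure D2:**
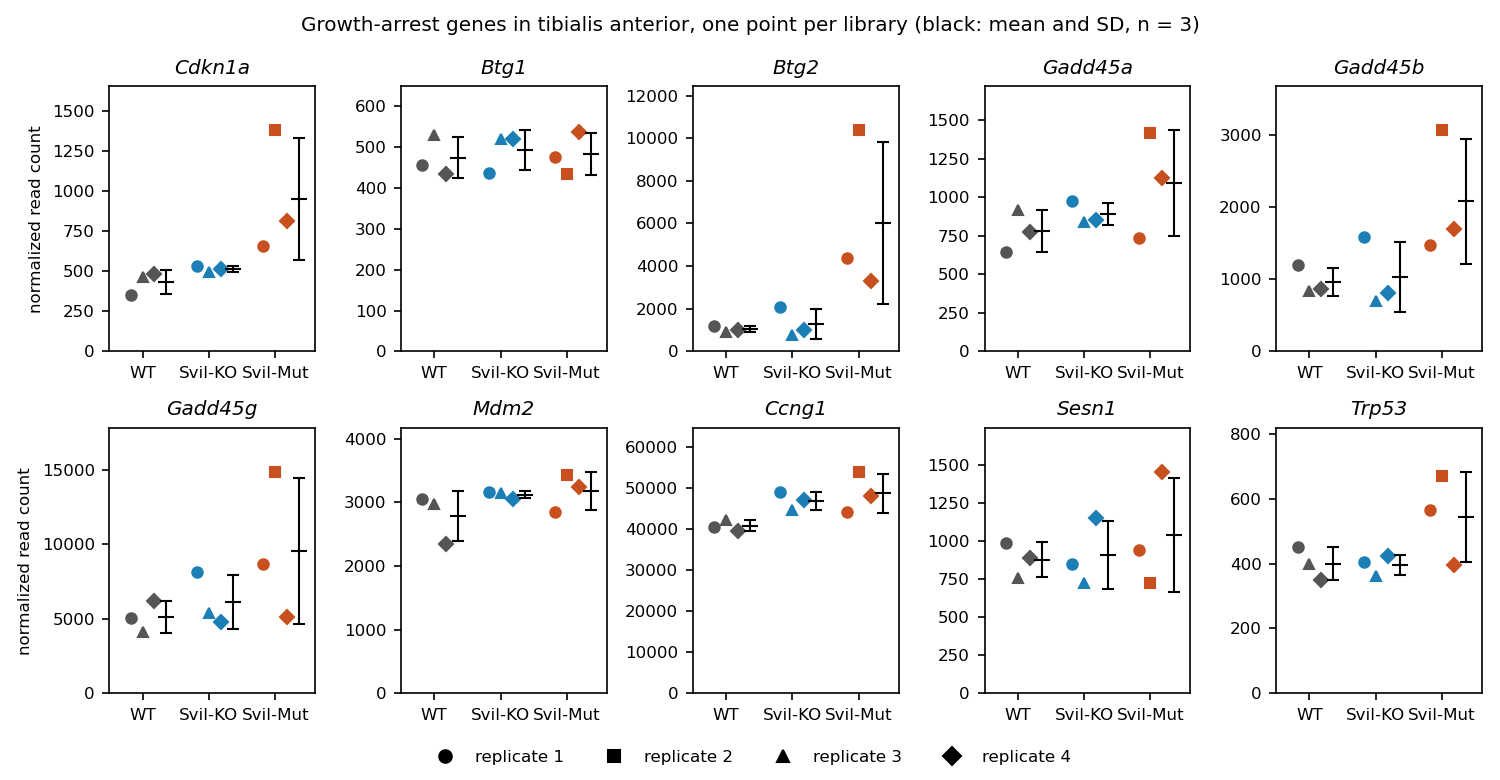
Normalized read count of each gene (y axis, from 0) in each library, with the replicate number as the symbol and the mean and SD (n = 3) in black. Svil-Mut replicate 2, the square, is the highest of the 9 libraries for 8 of the 10 genes, and Svil-KO replicate 1, the circle, stands above the other Svil-KO libraries for Btg2, Gadd45b and Gadd45g. How often Svil-Mut replicate 2 is highest over all genes was not counted.

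Cdkn1a encodes p21, an inhibitor of cyclin-dependent kinases that holds cells before S phase (ENSMUSG00000023067.14, GRCm38 chromosome 17, 29090976 to 29100727, plus strand, protein coding). It had 350, 466 and 484 normalized counts in WT, 532, 496 and 514 in Svil-KO, and 658, 1379 and 813 in Svil-Mut, in replicate order. The 3 genotypes formed separate steps with no overlap, and the step from WT to Svil-KO was narrow. The means were 433 ± 72.8, 514 ± 17.6 and 950 ± 379 (SD, n = 3). Svil-Mut had 2.19 times the WT mean (log2 fold change 1.07 ± 0.24 SE, 95% interval 0.54 to 1.60). The limma adjusted p was 0.230 (unadjusted p = 0.00101), the edgeR adjusted p 0.244 and the DESeq2 adjusted p 0.00289. Of the Cdkn1a exon length, 273 bases (7.68%) overlap the exons of an unconfirmed gene model on the other strand, and the library kit does not mark strand.

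The p53 half-site is the 10-base unit of which p53 binds a pair. The stretch upstream of the first of 2 RefSeq starts of Cdkn1a is shown because it held 2 matches to this unit. It is chr17:29090729-29090975 on the plus strand of GRCm38.p6 from RefSeq, and capitals mark the matches, with first bases at -73 and -51.
Cdkn1a: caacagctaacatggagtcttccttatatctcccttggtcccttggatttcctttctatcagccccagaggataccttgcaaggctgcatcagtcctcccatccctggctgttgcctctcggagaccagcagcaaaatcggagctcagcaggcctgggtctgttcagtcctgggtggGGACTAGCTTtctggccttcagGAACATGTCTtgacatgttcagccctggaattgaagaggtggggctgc
The second RefSeq start of Cdkn1a lies downstream, with its own upstream stretch at chr17:29093519-29093768. Its window had no match to any of the 4 motifs searched. The positions above are counted from the first start, and which start the reads came from was not tested.

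The other inhibitors and the pocket proteins that p21 acts through did not show this pattern. Of 10 such genes 8 were tested, 0 were called and 0 had an unadjusted limma p under 0.05 in either direction in Svil-Mut against WT, and their median log2 fold change was 0.033. Cdkn1c, another inhibitor of the same family (p57), had 506 to 607 normalized counts in WT and 426 to 685 in Svil-Mut (-0.15). Rb1, the retinoblastoma protein, had 618 to 1032 and 689 to 902 (0.089). Cdkn2a, which encodes p16 and Arf and is often followed in ageing tissue, was at 0 to 4.77 normalized counts across the 9 libraries and was not tested. Among 28 cyclins, cyclin-dependent kinases and replication genes, 23 were tested, 0 were called, and the median was 0.023. This median was the same with Plk1, at 0 in the 3 WT libraries, set to the bound of 3 reads per library. The only gene of that list with an unadjusted limma p under 0.05 was Mcm4, a subunit of the replicative helicase, at 237, 245 and 236 in WT and 163, 103 and 138 in Svil-Mut (log2 fold change -0.85, adjusted p = 0.283).

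The GADD45 proteins are small stress sensors that bind PCNA, p21 and the kinase MEKK4, upstream of p38 and JNK, and take part in DNA repair and demethylation. Gadd45b (ENSMUSG00000015312.9, chromosome 10, 80930073 to 80932204, plus strand) had 1192, 842 and 864 normalized counts in WT, 1589, 702 and 809 in Svil-KO, and 1477, 3064 and 1693 in Svil-Mut, in replicate order. The Svil-Mut libraries were all above WT, but Svil-KO replicate 1 lay above the lowest of them. The log2 fold change in Svil-Mut was 1.05 ± 0.32 SE (95% interval 0.33 to 1.76; limma unadjusted p = 0.0083, adjusted p = 0.344), and the ratio of means was 2.15.

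Gadd45g (ENSMUSG00000021453.2, chromosome 13, 51846678 to 51848468, plus strand) had 5049, 4108 and 6205 normalized counts in WT, 8170, 5387 and 4825 in Svil-KO, and 8667, 14846 and 5145 in Svil-Mut. Svil-Mut replicate 4 lay among the WT libraries, so the groups overlapped. Its log2 fold change was 0.79 ± 0.33 SE (limma unadjusted p = 0.0357, adjusted p = 0.447), 0.40 with Svil-Mut replicate 2 left out and 1.17 with Svil-Mut replicate 4 left out. Gadd45a (ENSMUSG00000036390.8, chromosome 6, 67035096 to 67037457, minus strand), the first known and p53-responsive member, had 648, 916 and 777 in WT, 975, 842 and 855 in Svil-KO, and 736, 1417 and 1126 in Svil-Mut. Here Svil-Mut replicate 1 lay within the WT range. For Gadd45a the log2 fold change was 0.45 (95% interval -0.027 to 0.93; limma adjusted p = 0.526), 0.24 with Svil-Mut replicate 2 left out and 0.71 with Svil-Mut replicate 1 left out. Exons of the opposite-strand gene E230016M11Rik cover 337 bases (19.1%) of the Gadd45a exon length, and that gene had 2.84 to 15.3 normalized counts. How reads in the shared bases were counted is not given, so the effect of the overlap on Gadd45a is not known.

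The upstream stretch of Gadd45b is printed for comparison with those of Btg2 and Cdkn1a, since Gadd45b also separated from WT but matched none of the motifs. It is chr10:80929841-80930072 on the plus strand of GRCm38.p6 from RefSeq, all in lower case because there is no match to mark.
Gadd45b: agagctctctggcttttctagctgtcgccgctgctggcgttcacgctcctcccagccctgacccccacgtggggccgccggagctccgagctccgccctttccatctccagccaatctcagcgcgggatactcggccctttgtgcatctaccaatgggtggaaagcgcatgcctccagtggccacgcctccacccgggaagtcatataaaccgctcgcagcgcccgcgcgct

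Among the Gadd45 genes, Gadd45g was the main transcript in this muscle in all 3 genotypes. Per kilobase of exon it gave 79.6% ± 6.7 (SD, n = 3) of the reads of the family in Svil-Mut, 81.9% ± 1.4 in Svil-KO and 80.2% ± 3.7 in WT. Gadd45b gave 13.6% ± 3.5, 9.91% ± 1.9 and 11.4% ± 2.6, and Gadd45a the remainder. These shares overlapped between the genotypes. None of the 14 tested partners in p38 and JNK signalling and in DNA demethylation was called or had an unadjusted limma p under 0.05 in Svil-Mut against WT, and their median log2 fold change was 0.011. Mapk9, which encodes the kinase JNK2, had 2502 to 2956 normalized counts in WT and 2742 to 3042 in Svil-Mut (0.074).

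Trp53 (ENSMUSG00000059552.13, chromosome 11, 69580359 to 69591873, plus strand) had 452, 398 and 349 normalized counts in WT, 404, 362 and 423 in Svil-KO, and 565, 669 and 396 in Svil-Mut, in replicate order. Replicates 1 and 2 of Svil-Mut were above all other libraries and replicate 4 was at the WT mean. For Trp53 the log2 fold change was 0.42 (95% interval -0.016 to 0.85; limma unadjusted p = 0.0574, adjusted p = 0.512), 0.25 with Svil-Mut replicate 2 left out and 0.63 with Svil-Mut replicate 4 left out. The activity of p53 is set largely by protein stability and modification, which RNA counts do not measure.

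Ccng1 encodes cyclin G1, a p53 target that acts with phosphatase 2A on Mdm2 (ENSMUSG00000020326.7, chromosome 11, 40748552 to 40755311, minus strand). It had 40490, 42275 and 39623 normalized counts in WT, 48992, 44548 and 47011 in Svil-KO, and 44261, 53833 and 47970 in Svil-Mut. All 6 libraries of the altered genotypes were above all 3 WT libraries, and the altered genotypes overlapped each other. Ccng1 had a log2 fold change of 0.25 ± 0.080 SE in Svil-Mut (95% interval 0.075 to 0.43; limma unadjusted p = 0.00948, adjusted p = 0.350). It was 0.20 ± 0.080 SE in Svil-KO (95% interval 0.023 to 0.37; limma unadjusted p = 0.03, adjusted p = 0.997). These are ratios of 1.19 and 1.15, small beside that of Btg2 but in a gene whose WT libraries varied by only 3.31% (coefficient of variation).

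Mdm2 (ENSMUSG00000020184.15, chromosome 10, 117688875 to 117710758, minus strand) had 3061, 2972 and 2344 normalized counts in WT, 3165, 3145 and 3057 in Svil-KO, and 2855, 3438 and 3241 in Svil-Mut. The genotypes differed mainly through the low WT replicate 4. The log2 fold change was 0.19 in Svil-Mut (95% interval -0.056 to 0.44; limma adjusted p = 0.614), and 0.071 without WT replicate 4. Sesn1, a stress-induced inhibitor of mTORC1 signalling (ENSMUSG00000038332.13, chromosome 10, 41809935 to 41908424, plus strand), had 987, 758 and 890 in WT, 851, 724 and 1153 in Svil-KO, and 939, 725 and 1451 in Svil-Mut. Svil-Mut replicate 2, the highest library for most members, was the lowest of the Svil-Mut libraries for Sesn1. The log2 fold change was 0.19 (95% interval -0.35 to 0.73; limma adjusted p = 0.852), and -0.082 without Svil-Mut replicate 4.

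The stretches before the starts of the p53 targets Ccng1 and Mdm2 each held 1 p53 half-site match and are shown with it in capitals. That of Ccng1 is chr11:40755312-40755536 on the minus strand and that of Mdm2 chr10:117710759-117711008 on the minus strand (GRCm38.p6, RefSeq), with first bases of the matches at -185 and -186.
Ccng1: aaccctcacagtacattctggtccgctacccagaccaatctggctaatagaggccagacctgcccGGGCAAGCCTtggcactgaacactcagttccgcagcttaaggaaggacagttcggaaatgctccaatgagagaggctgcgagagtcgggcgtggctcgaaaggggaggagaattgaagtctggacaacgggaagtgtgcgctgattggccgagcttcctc
Mdm2: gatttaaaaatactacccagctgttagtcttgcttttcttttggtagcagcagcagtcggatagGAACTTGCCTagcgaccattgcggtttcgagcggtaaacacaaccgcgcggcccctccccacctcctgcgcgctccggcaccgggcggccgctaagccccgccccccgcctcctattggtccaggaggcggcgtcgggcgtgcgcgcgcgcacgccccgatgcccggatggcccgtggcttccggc
In all, 6 of the 10 members (Cdkn1a, Gadd45a, Mdm2, Ccng1, Sesn1 and Trp53) had a p53 half-site match, in 6 of the 12 windows of the members, against 8.36% of all windows. The AP-1 site TGANTCA (N any base) was in no member window and in 7.81% of all windows, and the CArG box, the site of serum response factor, in none and in 1.63%. All 4 motifs were searched on both strands over the 300 bases of each window. A match is a string of letters, not a measured binding site, and these windows leave out more distant elements.

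Other targets of p53 were spread around 0. Of 36 listed, 30 were tested and 0 were called in either comparison against WT. In Svil-Mut, 3 had a higher level and 2 a lower level at an unadjusted limma p under 0.05, 19 were above 0, and the median log2 fold change was 0.12. Plk3, a stress-responsive polo-like kinase, was the farthest above WT, at 101, 10.1 and 34.6 normalized counts in WT, 64.9, 20.4 and 36.7 in Svil-KO, and 248, 237 and 202 in Svil-Mut (log2 fold change 2.74, limma adjusted p = 0.283). Polk, a translesion DNA polymerase, had 423 to 580 in WT and 623 to 726 in Svil-Mut (0.48, adjusted p = 0.376 by limma). Apaf1, the core of the apoptosome, had 21.4 to 62.7 and 79.2 to 135 (1.38, adjusted p = 0.398 by limma). In Svil-KO the list's median was also 0.12, and 22 of the 30 were above 0. There Xpc, a sensor of DNA damage, had 727 to 801 normalized counts against 490 to 635 in WT (0.46, limma adjusted p = 0.997).

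The regulators of p53 had medians slightly above 0. Of 20 listed, 18 were tested and 0 were called against WT, with medians of 0.094 in Svil-Mut and 0.14 in Svil-KO. Usp10 and Usp7, deubiquitinases that act on p53 and Mdm2, were the 2 with an unadjusted limma p under 0.05 in Svil-Mut, at log2 fold changes of 0.33 and 0.26. In Svil-KO, 3 regulators were higher at that threshold (2.36% of all genes) and 1 was lower. There 14 of the 18 were above 0 (50.6% of all genes), and 12 were in Svil-Mut (49.3%). Mdm4, the partner of Mdm2, had 687 to 950 normalized counts in Svil-KO, 529 to 634 in WT and 586 to 713 in Svil-Mut. Its log2 fold change was 0.42 in Svil-KO (limma unadjusted p = 0.0189, adjusted p = 0.997). Of the sestrin partners and relatives 13 of 13 were tested with 0 called, and the median in Svil-Mut was 0.018. Sesn3 had 78.2 to 162 in Svil-KO, 156 to 216 in WT and 104 to 150 in Svil-Mut.

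**Figure D3:**
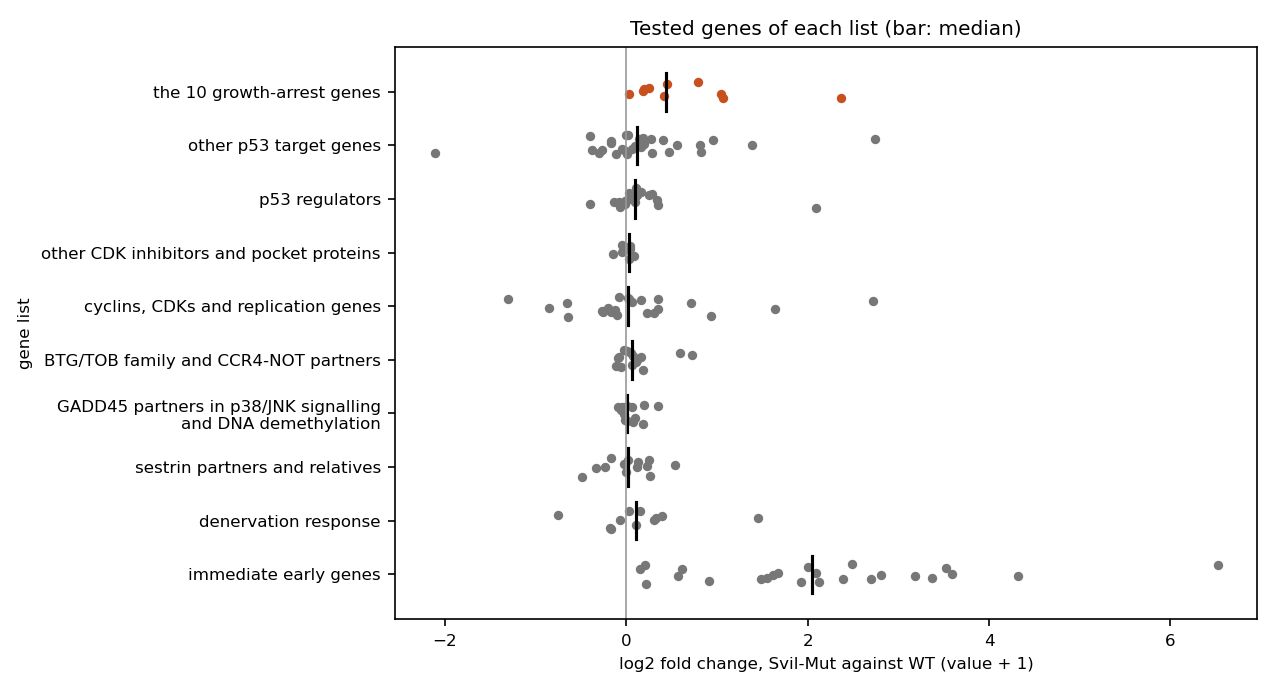
Log2 fold change in Svil-Mut against WT (x axis) for every tested gene of each list, 1 point per gene, with the median as a bar. The 10 growth-arrest genes (median 0.43) lie between the p53, cell-cycle and partner lists, with medians of 0.011 to 0.12, and the immediate early genes (median 2.05).

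In WT muscle the members spanned a wide range of levels. Per kilobase of exon the order was Ccng1 (11616 ± 385 normalized reads), Gadd45g (4366 ± 895), Gadd45b (608 ± 124), Mdm2 (549 ± 76.8), Gadd45a (442 ± 76.0), Btg2 (377 ± 51.2), Sesn1 (221 ± 28.8), Cdkn1a (122 ± 20.5), Trp53 (98.8 ± 12.7) and Btg1 (89.8 ± 9.5; all SD, n = 3). Ccng1 stood above 99.2% of the 14659 tested genes with a length, and Btg1 above 52.7%. The steps from Ccng1 to Gadd45g, Gadd45g to Gadd45b, Btg2 to Sesn1 and Sesn1 to Cdkn1a were wider than the spread of the WT libraries. Gadd45b, Mdm2, Gadd45a and Btg2 overlapped from each to the next, as did Cdkn1a, Trp53 and Btg1. In Svil-Mut the mean of Btg2 was 2195 ± 1388 reads per kilobase, behind only Ccng1 (13863 ± 1374) and Gadd45g (8144 ± 4186) among the members, and Gadd45b followed at 1308 ± 542.

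**Figure D4:**
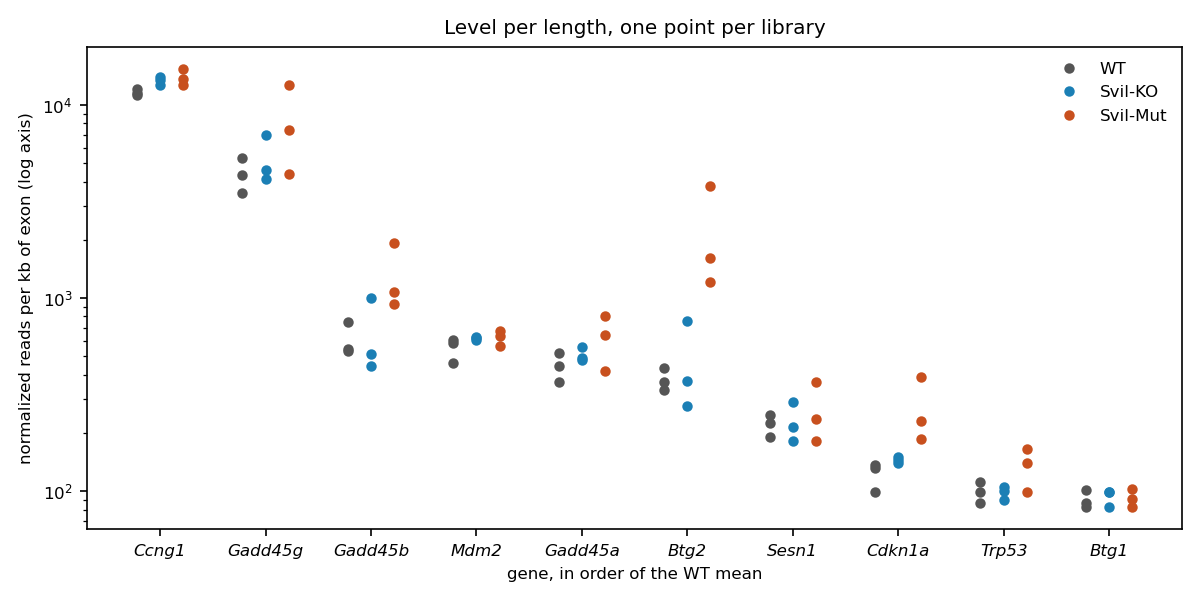
Normalized reads per kilobase of exon (y axis, log scale) for each gene, 1 point per library and 1 colour per genotype, ordered by the WT mean. Ccng1 and Gadd45g lead in all 3 genotypes, and the Svil-Mut points of Btg2 (means of 377 in WT and 2195 in Svil-Mut) lie above all its other points.

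In Svil-KO muscle the estimates for these genes were small, but several intervals were wide. The 95% intervals of Gadd45g (-0.48 to 0.96) and Gadd45a (-0.27 to 0.68) held the Svil-Mut estimates of 0.79 and 0.45. Those of Btg2, Cdkn1a and Gadd45b did not. For Ccng1 (0.20) and Mdm2 (0.17) the estimates were near those in Svil-Mut (0.25 and 0.19). Of the 10 members 9 had a log2 fold change above 0, all but Trp53 at -0.0079, where 50.6% of all genes did. The range was -0.0079 to 0.26 and the median 0.18, against 0.0031 over all genes. The libraries of Cdkn1a and Ccng1 did not overlap with WT, both higher, against 5.2% of all genes. Only Ccng1 had an unadjusted limma p under 0.05 with a higher level (2.36% of all genes). No member was called by limma or edgeR (0% of all genes in each) or by DESeq2 (0.0262%). For Btg2 the log2 fold change of 0.18 had an interval of -0.74 to 1.10 and was -0.24 without Svil-KO replicate 1. For Gadd45b these estimates were 0.020 and -0.34. Without that library, 7 members were above 0 and 0 had an unadjusted p under 0.05 with a higher level (50.7% and 1.77% of all genes). Cdkn1a had a log2 fold change of 0.26 (95% interval -0.27 to 0.79; limma adjusted p = 0.997), so a rise as large as the one estimated in Svil-Mut lies outside the interval.

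The direct comparison of Svil-KO with Svil-Mut sets the altered genotypes against each other. It shares its Svil-Mut libraries with the comparison against WT. Of the members 9 were lower in Svil-KO, all but Btg1, against 48.6% of all genes, and the median was -0.34 against 0.0089. The libraries of Btg2 and Cdkn1a did not overlap, both lower in Svil-KO (7.66% of all genes). Unadjusted limma p-values under 0.05 with a lower level were reached by 3 members, Btg2, Cdkn1a and Gadd45b (4.67% of all genes). No member was called by limma or by edgeR (0.0458% of all genes in each), and DESeq2 called Btg2 and Cdkn1a (1.41% of all genes). The log2 fold changes were -2.19 for Btg2 (95% interval -3.11 to -1.27; limma adjusted p = 0.144, DESeq2 adjusted p = 0.0145), -0.81 for Cdkn1a (-1.34 to -0.28; 0.323 and 0.0361 by the same tools) and -1.03 for Gadd45b (-1.74 to -0.31; 0.337 and 0.288). Without Svil-Mut replicate 2 the estimate for Cdkn1a was -0.51. For Ccng1 the difference was -0.052 (95% interval -0.23 to 0.12) and for Mdm2 -0.021 (-0.27 to 0.23), so differences between these genotypes of more than about 0.3 on the log2 scale lie outside the intervals of this pair.

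Single mice of a genotype differed widely for several members. Svil-Mut replicate 2 was the highest of the 9 libraries for 8 members, all but Btg1 and Sesn1, for which Svil-Mut replicate 4 was highest. The number of members more than 0.5 above their WT mean on the log2 scale was 5, 6 and 5 in Svil-Mut replicates 1, 2 and 4, 3 in Svil-KO replicate 1, and 0 in the other Svil-KO and in the WT libraries. Neither count was made over all genes, so neither sets these members apart. Over the expressed genes, Svil-Mut replicates also differed most from each other. The chi-square per degree of freedom between replicates was 37.9 to 75.4 in Svil-Mut, 21.4 to 31.0 in WT and 22.8 to 34.3 in Svil-KO. The coefficient of variation of Btg2 was 63.2% in Svil-Mut, 55.1% in Svil-KO and 13.6% in WT, and that of Cdkn1a 40.0%, 3.43% and 16.8%. Btg1 varied by 9.96% to 10.8% in all 3.

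The immediate early genes, which growth signals and stress switch on within minutes, moved with this ordering. Of 25 listed genes 24 were tested, and 3 rose in Svil-Mut by limma, Fos, Dusp1 and Atf3, while 20 had an unadjusted p under 0.05, all higher, and the median was 2.05. In replicate order, their mean deviation from WT was 2.17, 2.56 and 1.78 over the Svil-Mut libraries and 0.83, 0.0028 and 0.045 over the Svil-KO libraries. Btg2 deviated by 2.09, 3.33 and 1.68 and by 1.02, -0.45 and -0.02. Both thus ran from Svil-Mut replicate 2 through replicates 1 and 4 to Svil-KO replicate 1. Fos, a subunit of AP-1, differed from Btg2 in Svil-KO replicate 1, where it had 245 normalized counts against 167 to 287 in WT and 2418 to 2740 in Svil-Mut. The part of this shared ordering in the differences between genotypes was not tested.

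**Figure D5:**
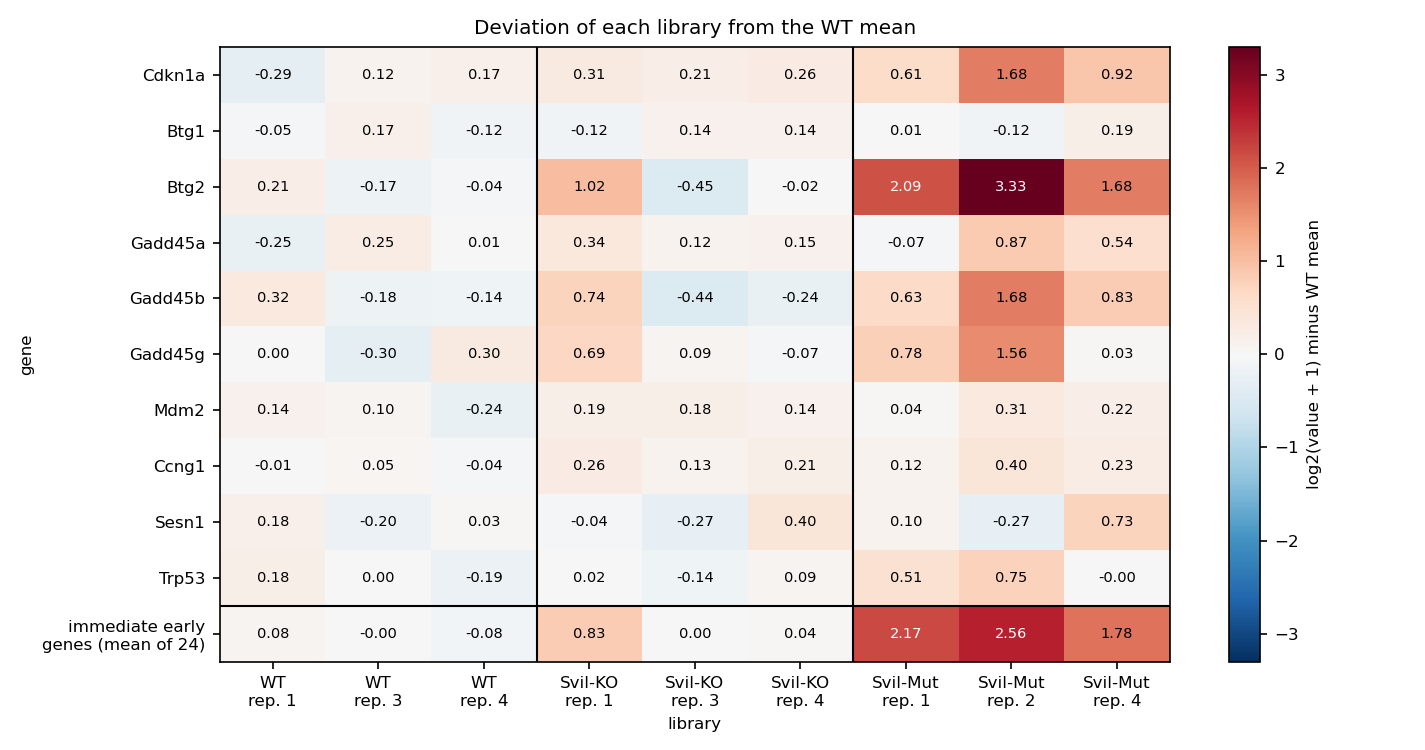
Deviation of each library (columns) from the WT mean on the log2(normalized count + 1) scale, for the 10 genes and for the mean of the 24 tested immediate early genes (bottom row). Red is above and blue below the WT mean, and Btg2 reaches 3.33 in Svil-Mut replicate 2 and 1.02 in Svil-KO replicate 1.

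Markers of other cell types were set beside these values, and their part in them was not tested. Red blood cell markers were higher in Svil-Mut for 5 of 8 genes at an unadjusted limma p under 0.05, with 0 called. Summed over the list, WT libraries had 9166 to 13242 normalized counts, Svil-KO libraries 7080 to 11065 and Svil-Mut libraries 10717 to 53916. The sum was highest in Svil-Mut replicate 4, where Btg1 and Sesn1 had their highest level of the 9 libraries, and the other 8 members were highest in Svil-Mut replicate 2. Fast-fibre genes summed to 6574370 to 6974300 in WT and 7697900 to 8283720 in Svil-Mut, with 3 of 10 higher and 1 lower at an unadjusted p under 0.05. Of 8 adipocyte markers 7 had an estimate below WT in Svil-Mut, 4 of them at an unadjusted limma p under 0.05. In Svil-KO only 1 of the 8 was above WT, with 0 at that threshold. The median log2 fold changes were -1.35 in Svil-Mut and -1.28 in Svil-KO. Sums were 11737 to 14712 in WT, 11198 to 12526 in Svil-KO and 9171 to 12811 in Svil-Mut, and mostly came from Fabp4 (WT mean 9492). Macrophage and leukocyte markers summed to 1276 to 1810, 1372 to 3058 and 1307 to 3634, with 0 of 9 tested at an unadjusted p under 0.05, and Itgam at 0 in 3 libraries. Neutrophil markers summed to 18.3 to 73.3, 23.1 to 37.5 and 26.5 to 437, with Ly6g at 0 in all 9 libraries. Satellite cell markers, of the muscle stem cells that can divide, summed to 4045 to 4380, 3845 to 5080 and 3984 to 4553, and Pax7 had at most 24.3 normalized counts. Of the 8 satellite cell genes 2 were lower in Svil-Mut than in WT at an unadjusted limma p under 0.05, with 0 called and a median log2 fold change of -0.35. Genes of the denervation response, in which Cdkn1a and Gadd45a take part, had a median of 0.11 in Svil-Mut with 0 of 11 tested called. At an unadjusted limma p under 0.05, 1 of these genes was higher in Svil-Mut and 1, Dach2, was lower. The median and these counts take no account of whether a gene rises or falls when the nerve is lost. They therefore cannot say whether such a response was present. Chrna1, the acetylcholine receptor subunit, had 610 to 1099 in WT and 871 to 1097 in Svil-Mut, and Dach2 had 386 to 591 and 235 to 328.

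The genes most like each variable member were those whose centred log2 values differed least from it over the 9 libraries, by root mean square, among 10927 genes with a mean of at least 50. For Btg2, which itself varied by 1.21 around its mean, they were an unnamed gene, ENSMUSG00000121069 (0.23), the kinase gene Sik1 (0.32) and the transcription factor gene Csrnp1 (0.35). Sik1 had 199, 272 and 231 normalized counts in WT, 696, 205 and 181 in Svil-KO, and 1177, 2124 and 876 in Svil-Mut, with Svil-KO replicate 1 between. Sik1 was picked for its likeness to Btg2 over these same libraries, so it is not a separate instance of the pattern. For Cdkn1a (0.54) they included ENSMUSG00000120512 (0.17) and Dnaja1, a co-chaperone (0.25). For Gadd45b (0.64) they were Pan3 (0.23), Nectin2 (0.27) and Vasp (0.28), and for Gadd45g (0.54) Rhob (0.23), Klf11 (0.24) and Coq10b (0.25). For Gadd45a (0.32) they were Zfx (0.11), Nfe2l2 (0.12) and Tsc22d3 (0.13), and for Sesn1 (0.31) Ptp4a3, Cdc42ep1 and Socs2 (0.14 each). No gene appeared among the 3 most like of more than 1 member.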

How the data were processed

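Libraries were grouped by their genotype label and numbered as in their titles, 1, 3 and 4 in WT and Svil-KO and 1, 2 and 4 in Svil-Mut. Per the labels' protocols, oligo(dT)-primed cDNA of each mouse was amplified with a SMARTer kit and tagged with Nextera XT. This kit does not mark strand, and no molecular identifiers are described. Per the submitters' processing notes, the authors used HISAT2, featureCounts and DESeq2 on mm10, whose versions, settings and annotation were not given in the sources used. Each deposited value is a signal, the reads of a gene over a size factor of the library, as the values showed: 100% of nonzero values were whole reads within 0.001 after multiplication by the median-of-ratios factor. Such values are not corrected for transcript length, and all sample columns were used (0 left out).

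Because the deposited signal is normalized, the test was limma 3.58.1 (R 4.3.3) on log2(value + 1), with a variance trend, all 9 libraries and genotype as the factor. Genes reaching 10 in at least 3 libraries were tested (15279), p-values were adjusted by Benjamini-Hochberg over all of them, and a gene was called under 0.05. EdgeR 4.0.16 (quasi-likelihood) and DESeq2 1.42.0 on the recovered reads, other pseudocounts, filters, scalings and variance models, a replicate block and leaving out each library made 22 alternatives. The steps were tested on simulated counts. The members and lists were chosen with earlier results of these data known. Beside the members and Svil, genes are named by rule: from each list up to 3 with the smallest p in Svil-Mut against WT and up to 2 in Svil-KO against WT, and the 3 most like each member that spans more than 1 on the log2 scale. Of the genes this rule takes, 1 is not reported here. Cdkn2a, E230016M11Rik and the cell type markers were named outside this rule, after their values were seen. Positions and exon lengths came from GENCODE M21 (GRCm38) and promoter windows from RefSeq (GRCm38.p6), which need not be the annotation the authors counted on.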

Additional observations from a re-analysis of the deposited data

How the results depend on the processing

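Under the 22 alternatives, the fold changes of Btg2, Cdkn1a, Gadd45a, Gadd45b, Gadd45g, Mdm2, Ccng1 and Trp53 in Svil-Mut against WT stayed above 0. The count of all genes called there was 6, and 19 with a pseudocount of 10, 16 with a mean of at least 50, 16 with robust estimation, 14 with only the 2 genotypes fitted and 176 by DESeq2. Leaving out 1 library gave 4 to 18, and 0 to 1 members. DESeq2 called 2 members. In Svil-KO against Svil-Mut, 7 genes were called, 216 by DESeq2, of them 2 members, and 4 to 13 without 1 library. In Svil-KO against WT, 0 were called, 4 by DESeq2 and 0 without any 1 library. The cause of these shifts was not tested.

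Log2 fold changes that turned sign were small. In Svil-KO against WT they were Trp53 (-0.0079; 0.0062 with library weights, -0.10 to 0.084 without 1 library), Gadd45b (0.020; -0.34 to 0.25), Sesn1 (0.031; -0.15 to 0.18), Btg1 (0.056; -0.0048 to 0.14) and Btg2 (0.18; -0.24 to 0.50). In Svil-Mut against WT they were Btg1 (0.027; -0.0052 with equal totals, -0.053 to 0.11 without 1 library) and Sesn1 (0.19; -0.082 to 0.42). In Svil-KO against Svil-Mut they were Mdm2 (-0.021; 0.0071 with library weights, -0.096 to 0.038), Btg1 (0.028; -0.046 to 0.11), Ccng1 (-0.052; -0.12 to 0.023) and Sesn1 (-0.16; -0.39 to 0.11).

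The replicate numbers did not pair the mice: deviations of same-numbered libraries correlated at -0.056 to 0.044. With a replicate block, 7, 6 and 0 genes were called in Svil-Mut against WT, Svil-KO against Svil-Mut and Svil-KO against WT, and 0 members in each. Number 2 occurs only in Svil-Mut, so the block fits Svil-Mut replicate 2 by itself. It thereby takes that library out of the comparison of genotypes. In Svil-KO against Svil-Mut the block gave -0.11 for Btg1, 0.010 for Mdm2 and 0.028 for Ccng1. There Gadd45g moved from -0.55 to -0.051, Gadd45b from -1.03 to -0.55 and Cdkn1a from -0.81 to -0.53. In Svil-Mut against WT the block gave 0.29 for Gadd45g (0.79 without it), 0.57 for Gadd45b (1.05), 0.28 for Gadd45a (0.45) and 0.22 for Trp53 (0.42). Leaving out Svil-Mut replicate 2, with no block, gave 0.40, 0.73, 0.24 and 0.25 for these genes. With the block, 3 members in place of 5 had an unadjusted limma p under 0.05 with a higher level. Over all 15279 genes these counts were 658 in place of 720. The number of mice, 3 per genotype, limits the precision of each comparison.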
